A study of Homo sapiens with 96 samples.

Results

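The splicing of 7 genes encoding kinases of SR proteins was examined in poly(A)-RNA sequencing of A549, an established human lung adenocarcinoma cell line. The genes were CLK1, CLK2, CLK3, CLK4, SRPK1, SRPK2, and DYRK1A. Every skipped exon (SE), mutually exclusive exon pair (MXE), alternative 3′ or 5′ splice site (A3SS, A5SS), and retained intron (RI) listed under these symbols in the 8 deposited splicing tables was taken. This gave 115 of 239131 listed events, and 7 of the 14359 genes with an event. The data comprised 30 libraries in 10 groups of 3. Control cells received 0.01% DMSO for 4 or 7 days. Treated cells received 1 µM GSK591, an inhibitor of PRMT5 (a Type II protein arginine methyltransferase, PRMT), or 1 µM MS023, an inhibitor of the Type I PRMTs, for 2, 4, or 7 days. Co-treated cells received 1 µM of each for 2 or 4 days. The 2- and 4-day inhibitor groups were set against DMSO at 4 days, so that for the 2-day groups time and treatment cannot be told apart, and the 7-day groups against DMSO at 7 days. All groups come from 1 line, and no label says that libraries of a group were separate cultures. The p-values rest on the spread between libraries, pooled or moderated across events, and that spread may be technical.

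SR proteins bind pre-mRNA and guide the choice of splice sites, and phosphorylation of their arginine-serine repeats controls where they reside and what they bind. SRPK1 and SRPK2 phosphorylate them mostly in the cytoplasm, which allows their import into the nucleus, whereas the CLK kinases act in the nucleus and release them from nuclear speckles. DYRK1A, encoded on chromosome 21, is a related dual-specificity kinase that also phosphorylates SR proteins. The CLK pre-mRNAs are themselves alternatively spliced: exon 4 can be skipped, which removes the reading frame of the kinase domain, and transcripts that keep the introns beside exon 4 can be held in the nucleus until they are spliced.

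The 4 exons on which most of the CLK results turn are shown with 20 bases of intron before and 10 after, from GRCh37 with its GENCODE annotation, 5′ to 3′ on the transcribed strand, with the exon in capitals. They are CLK1 exon 4 (chr2:201724848-201724938, minus strand), CLK2 exon 4 (chr1:155238499-155238586, minus), CLK3 exon 4 (chr15:74914461-74914557, plus), and CLK4 exon 4 (chr5:178044345-178044435, minus).
CLK1 exon 4: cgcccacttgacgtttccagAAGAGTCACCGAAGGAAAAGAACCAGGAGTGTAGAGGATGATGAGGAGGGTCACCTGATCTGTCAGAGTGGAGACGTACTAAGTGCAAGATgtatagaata
CLK2 exon 4: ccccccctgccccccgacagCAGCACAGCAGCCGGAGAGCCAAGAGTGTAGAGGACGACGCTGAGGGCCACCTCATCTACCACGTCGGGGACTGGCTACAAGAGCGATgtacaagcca
CLK3 exon 4: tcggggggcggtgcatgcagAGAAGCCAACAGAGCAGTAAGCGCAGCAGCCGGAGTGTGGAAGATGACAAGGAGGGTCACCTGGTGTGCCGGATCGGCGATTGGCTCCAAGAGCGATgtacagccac
CLK4 exon 4: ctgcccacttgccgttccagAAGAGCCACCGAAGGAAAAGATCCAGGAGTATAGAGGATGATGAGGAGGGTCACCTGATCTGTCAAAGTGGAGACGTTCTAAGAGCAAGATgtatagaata

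The exons are 91, 88, 97, and 91 nt long, and every length leaves a remainder of 1 when divided by 3. CLK1 and CLK4 exon 4 were identical at 85 of 91 positions (93.4%). In the MANE transcripts, which have 13 exons in each CLK gene, the reading frames run for 484, 499, 490, and 481 codons to a stop in exon 13. Without exon 4, the first stop in frame came after 136 codons in exon 5 of CLK1, 139 codons in exon 5 of CLK2, 152 codons in exon 6 of CLK3, and 143 codons in exon 5 of CLK4. These stops lie 809, 809, 740, and 782 nt before the last exon junction. In CLK2 the tables list a second form of exon 4 of 85 nt, which starts after the first 3 exon bases printed above.

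**Figure D1:**
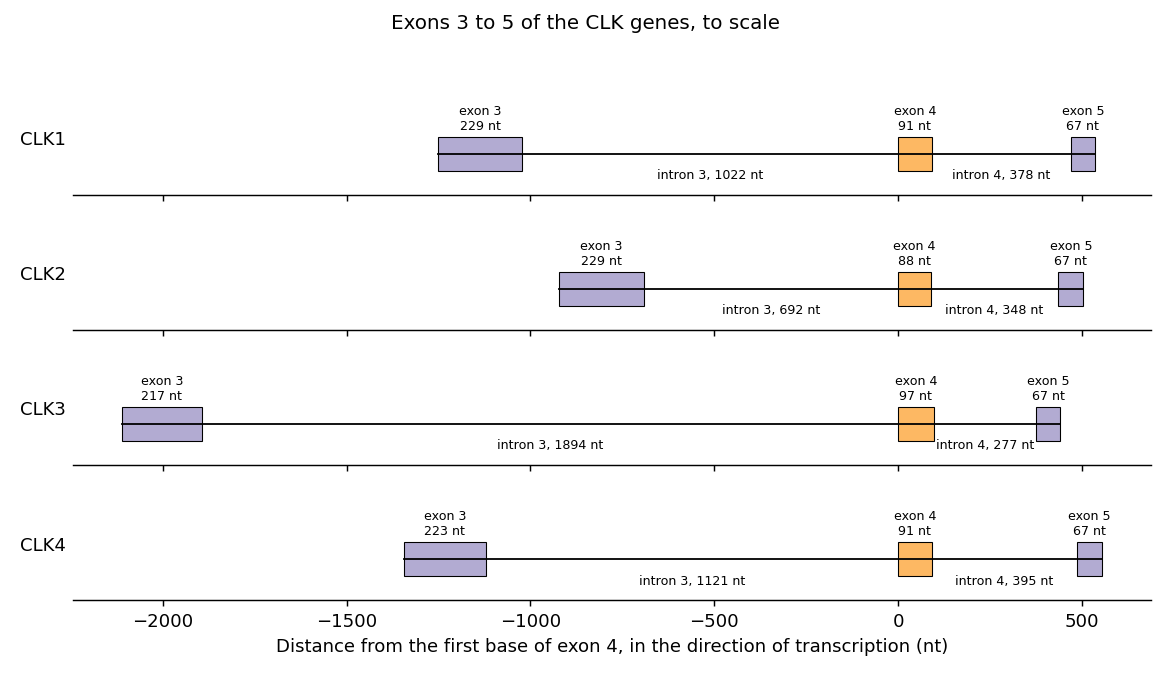
Exons 3 to 5 of the 4 CLK genes drawn to scale, with distance in nt from the first base of exon 4 along the direction of transcription on the x axis and 1 gene per row. Exon 4 (orange) is 88 to 97 nt long, intron 3 is 692 to 1894 nt, and intron 4 is 277 to 395 nt.

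Inclusion was measured as Ψ, which estimates the share of transcripts that include the segment. It was computed from counts of inclusion and skipping reads divided by their effective lengths. Reads within a segment count for inclusion, so where a segment spans another exon Ψ is not a share of transcripts. ΔΨ is Ψ with inhibitor minus Ψ with DMSO. An event was tested where every library had at least 10 reads on it, and called at an adjusted p under 0.05 in a quasi-binomial model fitted on all events of a comparison. Per library, 45420420 to 70493131 reads were counted on SE and 3123709 to 5224249 on RI, a read counting for each event it fits. The described events had between 17 and 788 reads per library. Of the epithelial markers, KRT8, KRT18, CDH1, and EPCAM had reads in all 10 groups, from at least 123335 per group for KRT8 to at least 21 for EPCAM, and KRT19 had no listed event. Of the fibroblast markers, COL1A1 had 31 to 175 reads in all 10 groups and PDGFRB 1 to 4 in 5 groups, while COL1A2 and DCN had no listed event. Of the blood cell markers, CD14 had 24 to 51 reads in 4 groups, CD3E 1 to 17 and LYZ 3 to 20 in 2 groups each, and PTPRC had no listed event. In every comparison the model gave all SE one common dispersion, and likewise all A3SS and all A5SS, so that a wide spread at 1 event barely widened its own error. The member RI had one common dispersion in 9 of 16 comparisons. Of 70 calls described here, 55 held with the larger of the common and the event's own dispersion, 12 held with limma on the log2 odds, and 33 held whichever single library was left out.

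Of the 115 member events, 102 were tested and 25 were called in at least 1 comparison with DMSO. With GSK591, 3 of 72 tested events were called at 2 days, against 6.28% of all events tested, 10 of 64 at 4 days against 10%, and 4 of 57 at 7 days against 7.31%. With MS023, 4 of 74 were called at 2 days against 2.24%, 2 of 70 at 4 days against 2.96%, and 10 of 64 at 7 days against 3.79%. With co-treatment, 7 of 71 were called at 2 days against 11.8%, and 10 of 73 at 4 days against 13.1%. The members' shares called were thus 4.17%, 15.6%, and 7.02% with GSK591, 5.41%, 2.86%, and 15.6% with MS023, and 9.86% and 13.7% with co-treatment, and only that of MS023 at 7 days was more than 3 times its background. By gene, 5 of the 10 calls at 4 days of GSK591 were in CLK2, where 12 events were tested. At 7 days of MS023, 7 of the 10 were in CLK4, where 14 were tested. Several of these events overlap and share reads, so the counts and shares do not stand for independent changes. Whether the genes differ was not tested. The median ΔΨ over the tested members lay between -0.0101 (GSK591, 7 days) and -0.000767 (MS023, 4 days), and that over all tested SE between -0.00325 and -0.000137 in the same 8 comparisons. The 77 tested events called in none had ΔΨ from -0.29 to 0.356 with a median of -0.00203, and 25 of their 348 event and comparison pairs had an unadjusted p under 0.05.

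**Figure D2:**
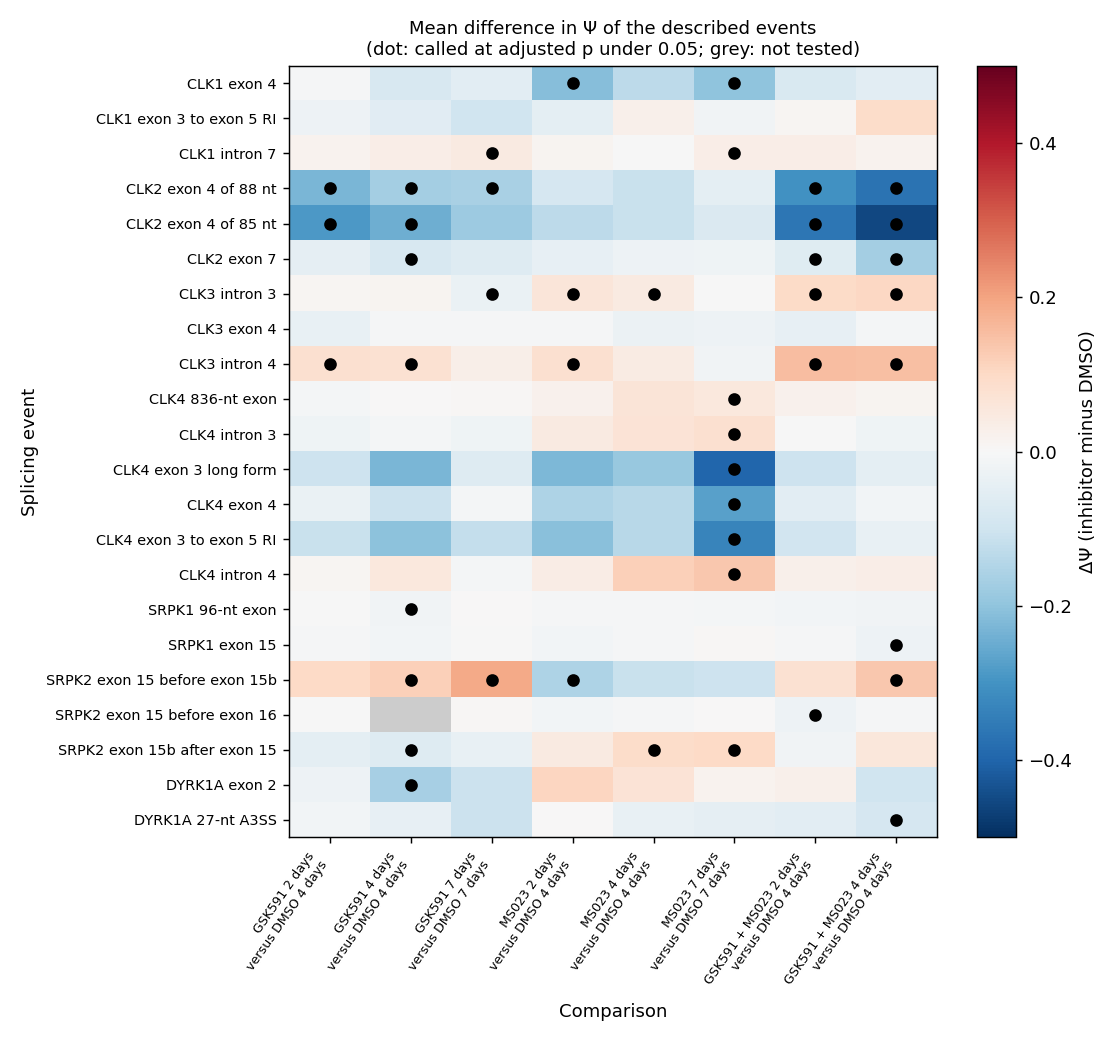
ΔΨ (color, inhibitor minus DMSO) of the 22 described events (rows) in the 8 comparisons with DMSO (columns), with a dot where the event was called and grey where it was not tested. CLK2 exon 4 is lower with GSK591 and co-treatment, the CLK4 rows are called with MS023 at 7 days, and SRPK2 exon 15 is higher with GSK591 at 4 and 7 days and lower with MS023 at 2 days.

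CLK2 exon 4 was included less with GSK591 and with co-treatment. In DMSO at 4 days Ψ of the 88-nt form was 0.857, 0.733, and 0.815 in libraries a, b, and c (mean 0.802 ± 0.0632, SD, n = 3). It was 0.620, 0.477, and 0.618 with GSK591 at 2 days and 0.579, 0.743, and 0.572 at 4 days. Co-treatment gave 0.438, 0.5, and 0.561 at 2 days and 0.418, 0.516, and 0.365 at 4 days (mean 0.433 ± 0.0767, SD, n = 3), where 71, 33, and 47 reads joined exon 3 to exon 5, against 13, 22, and 21 in DMSO. Each 2-day GSK591 library and each co-treated library lay below all DMSO libraries, whereas library b of GSK591 at 4 days lay among them. ΔΨ was -0.230 with GSK591 at 2 days (adjusted p = 0.000112), -0.170 at 4 days (adjusted p = 0.00717), -0.302 with co-treatment at 2 days (adjusted p = 4.92e-07), and -0.369 at 4 days (adjusted p = 6.32e-11). At 7 days, GSK591 libraries were at 0.588, 0.705, and 0.549 and DMSO libraries at 0.874, 0.806, and 0.651, which overlap at 1 library of each, with a ΔΨ of -0.163 (adjusted p = 0.0347).

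With MS023, CLK2 exon 4 was not called at any time: the libraries were at 0.734, 0.720, and 0.698 at 2 days, 0.884, 0.682, and 0.505 at 4 days, and 0.772, 0.713, and 0.695 at 7 days, and ΔΨ was -0.084, -0.111, and -0.050. The 4-day MS023 libraries spread widely, and in each comparison some libraries of this 88-nt form overlapped DMSO. The 85-nt form was not called with MS023 either. Its libraries at 2 days of MS023 (0.638, 0.560, and 0.605) lay below all DMSO libraries at 4 days (0.786, 0.693, and 0.723). The direct comparison of GSK591 with MS023 did not call the exon (adjusted p = 0.0502 at 2 days, 0.706 at 4 days, and 0.240 at 7 days), so a difference between the inhibitors was not shown. Co-treatment was lower than GSK591 alone at 4 days by 0.199 in Ψ (adjusted p = 0.008), and was not called against it at 2 days (adjusted p = 0.71). The 85-nt form, whose reads are largely the same, gave ΔΨ of -0.286 and -0.246 with GSK591 at 2 and 4 days and -0.359 and -0.455 with co-treatment. All 4 were called, and GSK591 at 7 days was not (adjusted p = 0.0753). Co-treatment was below GSK591 alone at 4 days in this form too (difference -0.210, adjusted p = 0.0271), which was lost without libraries a or b of GSK591 (-0.197 and -0.152) or a or c of co-treatment (-0.223 and -0.168). The 85-nt call with GSK591 at 4 days was lost without its library c (-0.175). The 88-nt calls at 2 days of GSK591 and at both times of co-treatment held without any 1 library. With limma no 88-nt call was made. Of the 85-nt calls, only co-treatment against DMSO at 4 days held with it, and only with 0.5 added to the counts. The GSK591 call at 4 days was lost without library a of DMSO (ΔΨ -0.142, adjusted p = 0.0872) or c of GSK591 (-0.141, 0.153), and that at 7 days without libraries a or b of DMSO (-0.115 and -0.148) or a or c of GSK591 (-0.150 and -0.130). The difference between co-treatment and GSK591 was lost without library b of GSK591 (-0.143) or a or c of co-treatment (-0.191 and -0.165). With the larger of the common and the event's own dispersion, the 88-nt calls with GSK591 at 4 and 7 days were lost. So was the difference between co-treatment and GSK591 in both forms.

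CLK1 exon 4 was included less with MS023. Ψ was 0.845, 0.893, and 0.885 in DMSO at 4 days and 0.631, 0.614, and 0.739 with MS023 at 2 days, with no overlap. The inclusion reads were 141, 148, and 174 in DMSO and 77, 64, and 73 with MS023, and the skipping reads 16, 11, and 14 against 28, 25, and 16. ΔΨ was -0.213 (adjusted p = 0.000942). At 4 days of MS023 the libraries were at 0.807, 0.756, and 0.666, also below all DMSO libraries, but the event was not called (ΔΨ -0.132, adjusted p = 0.105). At 7 days Ψ was 0.843, 0.934, and 0.919 in DMSO and 0.585, 0.713, and 0.788 with MS023, again without overlap (ΔΨ -0.203, adjusted p = 0.000784).

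GSK591 left CLK1 exon 4 uncalled, with libraries at 0.865, 0.903, and 0.841 at 2 days, 0.707, 0.760, and 0.911 at 4 days, and 0.871, 0.890, and 0.778 at 7 days. Set directly against MS023, Ψ of CLK1 exon 4 with GSK591 was higher by 0.208 at 2 days (adjusted p = 0.000514) and by 0.151 at 7 days (adjusted p = 0.0325), and the 4-day difference was not called (adjusted p = 0.721). Co-treated libraries were at 0.844, 0.830, and 0.717 at 2 days and 0.858, 0.719, and 0.885 at 4 days and were not called against DMSO (adjusted p = 0.246 and 0.529). The 2-day calls held without any 1 library, but no call of CLK1 exon 4 was made with limma. The 7-day call against DMSO was lost without library a of MS023 (ΔΨ -0.148, adjusted p = 0.188). The 7-day difference from GSK591, in which the groups overlap, was lost without libraries a or b of MS023 (0.096 and 0.159) or a or b of GSK591 (0.138 and 0.129). This difference was also lost with the larger dispersion.

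CLK4 exon 4, the near-copy of CLK1 exon 4, was called with MS023 at 7 days. Ψ was 0.886, 0.971, and 0.974 in DMSO and 0.775, 0.596, and 0.646 with MS023, with no overlap. Skipping reads were 8, 2, and 2 in DMSO and 9, 21, and 17 with MS023, while inclusion reads were 100, 108, and 120 against 50 in each MS023 library. ΔΨ was -0.271 (adjusted p = 1.25e-06). At 2 and 4 days of MS023, Ψ was 0.733, 0.734, and 0.810, then 0.753, 0.775, and 0.798, all below the 4-day DMSO libraries at 0.921, 0.947, and 0.869, yet neither was called (adjusted p = 0.0834 and 0.155). Co-treatment was not called against DMSO at 2 or 4 days, and it was not set against MS023 alone. GSK591 at 7 days gave 0.977, 0.925, and 0.898, higher than MS023 by 0.261 (adjusted p = 2.69e-06). Both 7-day calls held without any 1 library, but neither was made with limma. The MS023 effect at 7 days was not shown to differ from that at 4 days by the test of the interaction (adjusted p = 0.73), and no member event was called in that test (0 of 54, against 0.124% of all events).

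CLK3 exon 4 was included in nearly all transcripts in every group. The DMSO libraries were at 0.959, 0.961, and 0.986 at 4 days and 0.970, 0.987, and 0.969 at 7 days. The inhibitor libraries ranged from 0.898 (MS023, 7 days, library b) to 0.994 (GSK591, 7 days, library b), and all but co-treatment at 2 days (0.933, 0.923, and 0.927) overlapped DMSO. ΔΨ lay between -0.041 and -0.005 in the 8 comparisons and none was called, the lowest adjusted p being 0.28.

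**Figure D3:**
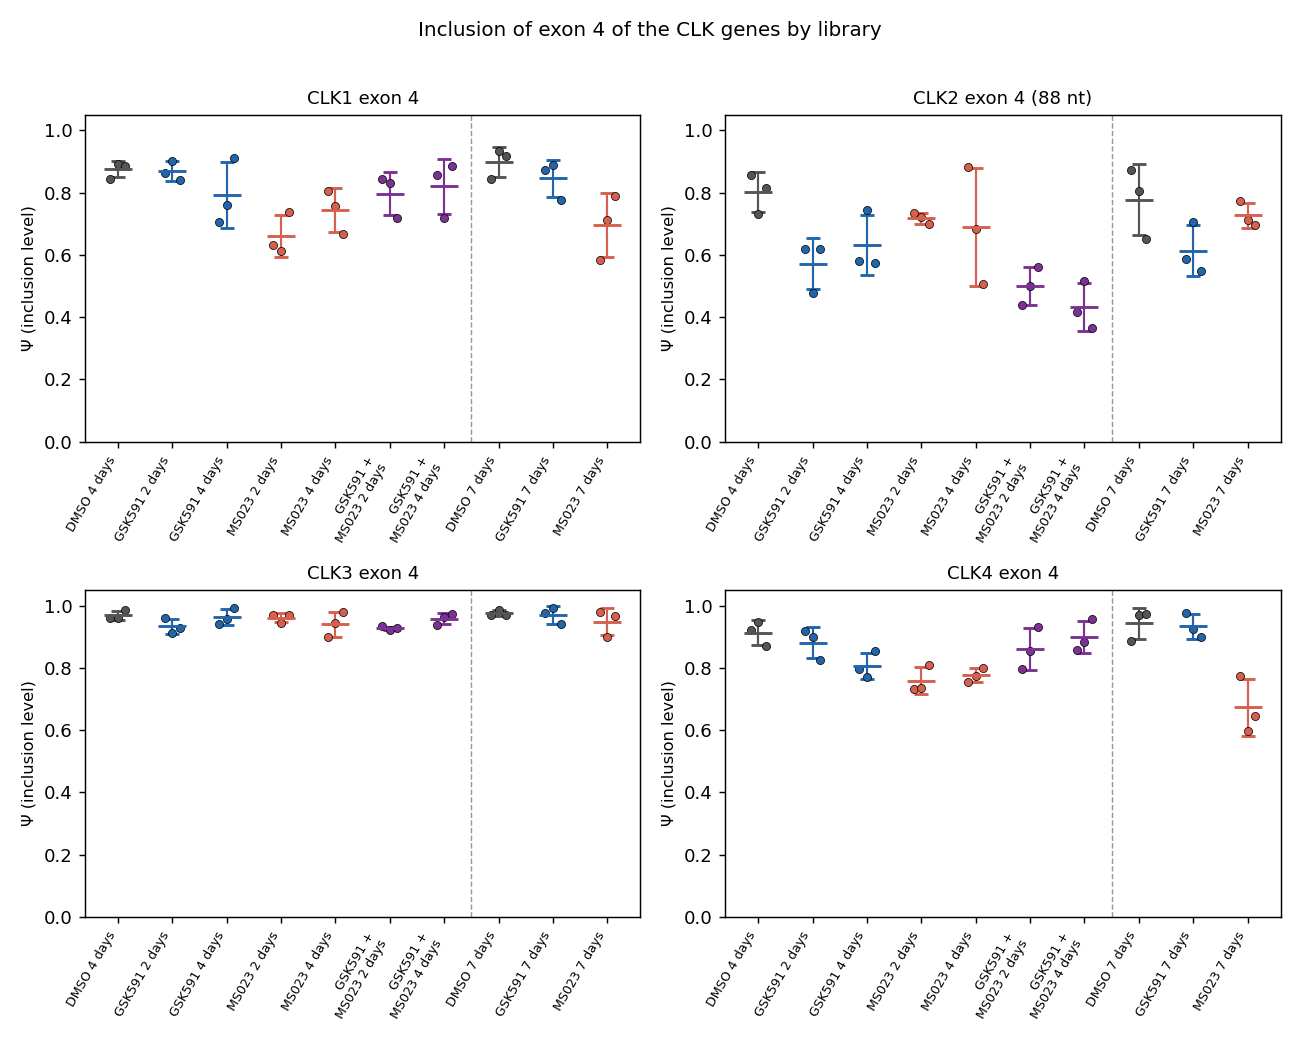
Ψ of exon 4 of CLK1, CLK2 (88-nt form), CLK3, and CLK4 in each library (points) with the mean and SD of the 3 libraries per group (bars), and a dashed line between the groups set against DMSO at 4 and at 7 days. CLK2 falls to 0.365 to 0.561 with co-treatment, CLK1 and CLK4 are lowest with MS023, and CLK3 stays at 0.898 or above.

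The introns beside exon 4 of CLK3 were retained more in several treated groups. Intron 3 (chr15:74912567-74914460, 1894 nt, 58.5% GC) had a Ψ of 0.101, 0.0825, and 0.0894 in DMSO at 4 days. Co-treatment gave 0.181, 0.188, and 0.194 at 2 days and 0.168, 0.241, and 0.177 at 4 days, all above DMSO. ΔΨ was 0.097 (adjusted p = 9.13e-08) and 0.105 (adjusted p = 2.32e-10). MS023 alone gave 0.134, 0.148, and 0.169 at 2 days and 0.130, 0.152, and 0.126 at 4 days, also above every DMSO library, with ΔΨ of 0.059 (adjusted p = 0.0016) and 0.045 (adjusted p = 0.00992). GSK591 alone gave 0.109, 0.105, and 0.0931, then 0.110, 0.0973, and 0.106, which overlap DMSO and were not called (adjusted p = 0.496 and 0.403). Co-treatment exceeded GSK591 alone by 0.085 at 2 days (adjusted p = 0.00116) and 0.091 at 4 days (adjusted p = 3.46e-06). GSK591 alone was also lower than MS023 alone at 2 days by 0.048 (adjusted p = 0.0121), which was lost without library c of MS023 (-0.038). At 7 days the levels were 0.0968, 0.111, and 0.104 in DMSO, 0.102, 0.115, and 0.088 with MS023, and 0.0635, 0.0614, and 0.0889 with GSK591, which lay below DMSO (ΔΨ -0.032, adjusted p = 0.00781). GSK591 minus MS023 was -0.030 at 7 days (adjusted p = 0.0102), with overlapping libraries, and this call was lost without library b of MS023 (-0.024) or a or b of GSK591 (-0.026 and -0.025). The 4-day and 7-day GSK591 effects were set against each other in 52 member events, of which this intron alone was called, against 1.97% of all events and 6.77% of all RI.

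Intron 4 of CLK3 (chr15:74914558-74914834, 277 nt, 48.7% GC) was called with GSK591 too. Ψ was 0.0860, 0.0944, and 0.0724 in DMSO at 4 days, 0.119, 0.173, and 0.202 with GSK591 at 2 days, and 0.135, 0.196, and 0.156 at 4 days. MS023 gave 0.181, 0.176, and 0.130 at 2 days, and co-treatment 0.311, 0.231, and 0.176 at 2 days and 0.258, 0.234, and 0.218 at 4 days. All of these libraries lay above DMSO. ΔΨ was 0.081 and 0.078 with GSK591 (adjusted p = 0.00824 and 0.0041), 0.078 with MS023 at 2 days (adjusted p = 0.0268), and 0.155 and 0.152 with co-treatment (adjusted p = 3.23e-07 and 1.34e-08). MS023 at 4 days (0.129, 0.106, and 0.137) was not called (adjusted p = 0.307), nor was either inhibitor against DMSO at 7 days (adjusted p = 0.329 and 0.643). GSK591 was higher than MS023 at 7 days by 0.046 (0.108, 0.0804, and 0.194 against 0.0701, 0.095, and 0.0809, adjusted p = 0.0357), with overlapping libraries. That difference was lost with the larger dispersion, and without library c of GSK591 (0.012, adjusted p = 0.611) or a or c of MS023 (0.040 and 0.045). Co-treatment was not called against GSK591 alone (adjusted p = 0.24 and 0.078).

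For these introns the background differs by inhibitor. Among all RI tested, 28.3% and 37.3% were called with GSK591 at 2 and 4 days, 26.9% with GSK591 at 7 days, and 34.5% and 38.9% with co-treatment. Those called higher were 25.7%, 33.3%, and 21% with GSK591 at 2, 4, and 7 days and 29.5% and 33% with co-treatment, and those called lower 2.61%, 3.97%, and 5.87% with GSK591 and 5% and 5.87% with co-treatment. With MS023, 1.49% and 2.13% of all RI were called higher at 2 and 4 days, and 4.33% and 7.02% lower. The calls of both introns with co-treatment against DMSO held with limma and without any 1 library, as did intron 4 with GSK591 at 4 days. No other call of these introns was made with limma. Intron 3 with MS023 held without any 1 library at 2 days but was lost at 4 days without library b of DMSO (0.041) or of MS023 (0.037), and the 7-day GSK591 call was lost without libraries a or b of GSK591 (-0.029 and -0.027). For intron 4 the GSK591 call at 2 days was lost without library c of DMSO (0.075) or b or c of GSK591 (0.077 and 0.062), and the MS023 call at 2 days without libraries a or c of DMSO (0.079 and 0.072) or a or b of MS023 (0.069 and 0.072).

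CLK4 introns 3 and 4 had a higher Ψ with MS023 at 7 days, each set against its own junction with exon 4. Intron 3 (chr5:178044436-178045556, 1121 nt, 31.9% GC) was at 0.0853, 0.0632, and 0.0663 in DMSO, 0.179, 0.145, and 0.134 with MS023, and 0.0285, 0.0583, and 0.0670 with GSK591. The MS023 libraries lay above all others, with ΔΨ of 0.081 (adjusted p = 0.00418), and GSK591 was lower than MS023 by 0.101 (adjusted p = 5.94e-07). Intron 4 (chr5:178043950-178044344, 395 nt, 30.4% GC) was at 0.118, 0.156, and 0.113 in DMSO, 0.348, 0.203, and 0.244 with MS023, and 0.0931, 0.153, and 0.110 with GSK591. ΔΨ with MS023 was 0.136 (adjusted p = 0.0328), and GSK591 was lower than MS023 by 0.146 (adjusted p = 0.00239). So at 7 days of MS023 Ψ of both neighboring introns of CLK4 was higher while exon 4 was skipped more. Skipping of exon 4 takes reads from the junctions that these introns are set against. Set against the junction of exon 3 to exon 5, the longer segments described below, which take in intron 3, were lower (ΔΨ -0.395 and -0.328). Whether more transcripts kept the introns was not tested. Among all RI, 1.9% were called higher and 9.62% lower with MS023 than with DMSO at 7 days. Between GSK591 and MS023 at 7 days 38.8% were called, 32% higher and 6.79% lower with GSK591. At 2 and 4 days intron 3 with MS023 was at 0.184, 0.143, and 0.198, and at 0.182, 0.270, and 0.135, against 0.136, 0.130, and 0.119 in DMSO, and was not called (adjusted p = 0.578 and 0.269). At these times intron 4 with MS023, and both introns with co-treatment, were not called against DMSO either.

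The control level of CLK4 intron 3 itself was lower in DMSO at 7 than at 4 days by 0.057 (adjusted p = 0.0358). Without library a of MS023, the 7-day calls of intron 3 and intron 4 were lost (ΔΨ 0.068 and 0.094) and so was the intron 4 difference from GSK591 (-0.105), while that of intron 3 held without any 1 library. With limma both differences from GSK591 held, and the calls against DMSO did not. The intron 4 call was also lost without libraries a or c of DMSO (0.131 and 0.128) or c of MS023 (0.147), and the DMSO difference in intron 3 without libraries a or b at 4 days (-0.053 and -0.056) or any library at 7 days (-0.064 to -0.053).

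**Figure D4:**
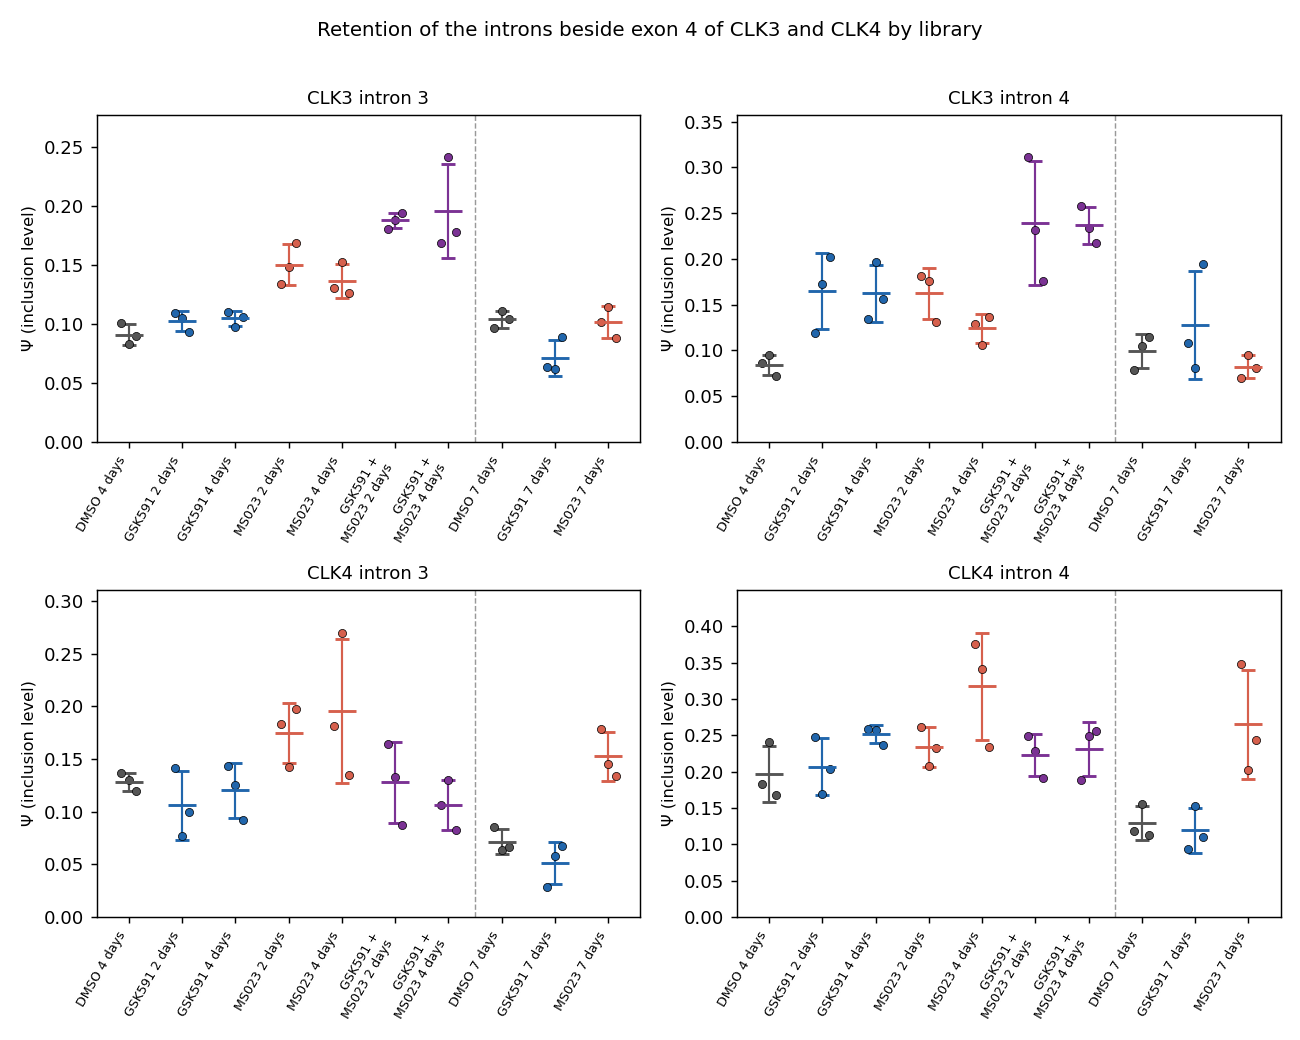
Ψ of introns 3 and 4 of CLK3 (top) and CLK4 (bottom) in each library (points) with the mean and SD of the 3 libraries per group (bars). Both CLK3 introns are highest with co-treatment (0.168 to 0.311), and both CLK4 introns are higher with MS023 than with DMSO or GSK591 at 7 days.

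Further CLK4 events share reads with exon 4. In one, exon 3 runs on through intron 3 and exon 4 before joining exon 5, and is set against the direct junction of exon 3 to exon 5. Its Ψ was 0.596, 0.837, and 0.848 in DMSO at 7 days and 0.528, 0.259, and 0.311 with MS023, without overlap (ΔΨ -0.395, adjusted p = 0.000659), and GSK591 exceeded MS023 by 0.329 (adjusted p = 0.00228). The other, retention of the whole stretch from exon 3 to exon 5, was at 0.465, 0.763, and 0.753 in DMSO and 0.514, 0.208, and 0.275 with MS023, where the groups overlap (ΔΨ -0.328, adjusted p = 0.044). This call was lost with the larger dispersion, and without libraries b or c of DMSO (-0.277 and -0.282) or b or c of MS023 (-0.266 and -0.300). The same skipping reads from exon 3 to exon 5 enter both and exon 4 itself. Reads within the segment, those of exon 4 included, count for inclusion. These Ψ values are therefore not shares of transcripts that keep the whole segment, here or in CLK1. In CLK1 the same stretch from exon 3 to exon 5 was between 0.550 and 0.869 in all 30 libraries and was called in no comparison (adjusted p from 0.278 to 0.962 against DMSO). An 836-nt exon between exons 2 and 3 of CLK4 (chr5:178046839-178047674) was at 0.0267, 0.0404, and 0.0306 in DMSO at 7 days and 0.0752, 0.0808, and 0.0972 with MS023 (ΔΨ 0.052, adjusted p = 0.000729), all libraries with MS023 being higher. GSK591 minus MS023 was -0.046 at 7 days (adjusted p = 0.0028), with GSK591 at 0.0289, 0.0462, and 0.0392 and no overlap. It was also lower in DMSO at 7 than at 4 days, when the libraries were at 0.0852, 0.116, and 0.0820 (difference -0.062, adjusted p = 0.000119). These DMSO groups were set apart by 5 of 68 member events, against 5.8% of all events.

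Elsewhere in the CLK genes, exon 7 of CLK2 (chr1:155236520-155236686, 167 nt, remainder 2) was included less with co-treatment. Ψ was 0.988, 0.975, and 0.948 in DMSO at 4 days, 0.906, 0.909, and 0.911 with co-treatment at 2 days, and 0.803, 0.802, and 0.802 at 4 days, so that each step down was clear of the other libraries. ΔΨ was -0.062 (adjusted p = 0.028) and -0.168 (adjusted p = 3.22e-09), and -0.080 with GSK591 at 4 days (0.868, 0.936, and 0.866, adjusted p = 0.00312). GSK591 libraries at 2 days (0.941, 0.946, and 0.884) also lay below all DMSO libraries at 4 days. At 7 days those of GSK591 (0.889, 0.919, and 0.870) lay below DMSO (0.953, 0.970, and 0.953). Neither was called. MS023 overlapped DMSO at each time and was not called. Without exon 7 the CLK2 frame ends after 226 codons in exon 8. The co-treatment call at 4 days held without any 1 library, and with limma with 0.5 but not 0.1 added to the counts. The other exon 7 calls were not made with limma. The one at 2 days was lost without libraries a or b of DMSO (-0.053 and -0.059) or any co-treated library (-0.063 to -0.060), and the GSK591 call without library c of GSK591 (-0.068, adjusted p = 0.0515). CLK1 intron 7 (chr2:201721709-201722440, 732 nt) was at 0.0191, 0.0511, and 0.0513 in DMSO at 7 days, 0.0826, 0.104, and 0.0688 with GSK591, and 0.0800, 0.0724, and 0.0714 with MS023. Both inhibitors lay above DMSO, by 0.044 (adjusted p = 0.00341) and 0.034 (adjusted p = 0.0426). The DMSO libraries at 4 days were at 0.132, 0.0561, and 0.0833, and the control level itself was lower at 7 than at 4 days by 0.050 (adjusted p = 0.0189). This control difference was lost without library a at 4 days (-0.029) or at 7 days (-0.039), and at 4 days no inhibitor group was called (adjusted p from 0.101 to 0.97). Without library a of DMSO at 7 days both calls were lost (0.034 and 0.023). The GSK591 call was also lost without its library b (0.035), and the MS023 call without any of its own libraries (0.031 to 0.036). With the larger dispersion, the MS023 call and the control difference were lost.

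SRPK2 carries a pair of 93-nt exons between exons 14 and 16. The one nearer exon 14 is exon 15 of the MANE transcript (chr7:104766695-104766787, minus strand), and the one nearer exon 16 is here called exon 15b (chr7:104766229-104766321). SRPK1 has a matching pair, of which the MANE transcript uses the one nearer exon 16 (chr6:35806114-35806206) and not the one nearer exon 14 (chr6:35806483-35806575). They are shown together because the pairs lie at the same place in both genes, with exons in capitals and GRCh37 intron bases in lower case.
SRPK2 93-nt exon nearer exon 14: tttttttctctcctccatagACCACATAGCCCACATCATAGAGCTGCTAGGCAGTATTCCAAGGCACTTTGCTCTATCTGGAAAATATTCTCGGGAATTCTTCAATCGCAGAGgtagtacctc
SRPK2 93-nt exon nearer exon 16: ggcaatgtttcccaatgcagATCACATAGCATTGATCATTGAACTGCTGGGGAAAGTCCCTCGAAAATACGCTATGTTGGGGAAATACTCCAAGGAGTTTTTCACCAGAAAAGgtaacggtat
SRPK1 93-nt exon nearer exon 14: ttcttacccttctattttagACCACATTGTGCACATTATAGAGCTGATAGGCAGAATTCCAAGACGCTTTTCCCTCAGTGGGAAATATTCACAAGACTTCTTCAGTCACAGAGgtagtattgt
SRPK1 93-nt exon nearer exon 16: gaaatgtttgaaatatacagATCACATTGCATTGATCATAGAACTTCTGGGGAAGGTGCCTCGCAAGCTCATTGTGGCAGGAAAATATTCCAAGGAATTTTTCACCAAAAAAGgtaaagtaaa

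Within SRPK2 the pair is 61.3% identical, whereas each exon is 78.5% and 79.6% identical to its counterpart in SRPK1. All have lengths divisible by 3, so either choice keeps the frame. In SRPK1 the exon nearer exon 14 had on average 2.762 reads per library and was not tested, and exon 15 was at 0.969 or above in all 30 libraries. SRPK2 used both.

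SRPK2 exon 15 was set against the junction that passes it by, from exon 14 to exon 15b. That junction had 16, 10, and 21 reads in DMSO at 4 days, 3, 4, and 5 with GSK591, 2, 4, and 3 with co-treatment, and 33, 22, and 44 with MS023 at the same time. Ψ of exon 15 was 0.833, 0.895, and 0.751 in DMSO, 0.956, 0.946, and 0.939 with GSK591, 0.977, 0.956, and 0.957 with co-treatment, and 0.734, 0.776, and 0.636 with MS023. The GSK591 and co-treated libraries lay above all DMSO libraries, and those of MS023 overlapped them. ΔΨ at 4 days was 0.120 with GSK591 (adjusted p = 0.0336) and 0.137 with co-treatment (adjusted p = 0.00246), while MS023 was not called (adjusted p = 0.165). At 2 days MS023 was at 0.751, 0.596, and 0.675 and lower than DMSO by 0.153 (adjusted p = 0.0284), and GSK591 at 0.919, 0.927, and 0.935 was not called (adjusted p = 0.189). At 7 days GSK591 was at 0.897, 0.860, and 0.978 against 0.752, 0.812, and 0.608 in DMSO (ΔΨ 0.188, adjusted p = 0.00473), and MS023 at 0.591, 0.668, and 0.602 was not called (adjusted p = 0.3).

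The inhibitors differed from each other at all 3 times. Ψ of exon 15 with GSK591 exceeded that with MS023 by 0.253 at 2 days (adjusted p = 5.64e-06), 0.231 at 4 days (adjusted p = 2.99e-06), and 0.292 at 7 days (adjusted p = 1.54e-06), with no overlap of libraries, and all 3 held without any 1 library. With limma only the 4-day difference was called. Exon 15b, set against the junction from exon 15 to exon 16, moved the other way. Transcripts with exon 15b alone add skipping reads to the exon 15 event and inclusion reads to the exon 15b event. These events are therefore not independent results. It was at 0.087, 0.0715, and 0.111 with GSK591 and 0.174, 0.134, and 0.242 with MS023 at 2 days, then 0.0666, 0.053, and 0.102 against 0.269, 0.245, and 0.174 at 4 days, and 0.138, 0.0943, and 0.0331 against 0.214, 0.207, and 0.247 at 7 days. GSK591 was lower by 0.094 (adjusted p = 0.000775), 0.156 (adjusted p = 4.28e-10), and 0.134 (adjusted p = 2.18e-07), and the 2-day difference was lost without library c of MS023 (-0.065, adjusted p = 0.0616). Between the inhibitors, 7 of 64 member events were called at 2 days against 9.83% of all events, 7 of 57 at 4 days against 14.3%, and 12 of 52 at 7 days against 11.7%.

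Against DMSO, exon 15b (0.144, 0.158, and 0.111 at 4 days, 0.145, 0.106, and 0.125 at 7 days) was lower with GSK591 at 4 days by 0.064 (adjusted p = 0.0195) and higher with MS023 at 4 days by 0.092 (adjusted p = 0.00664) and at 7 days by 0.098 (adjusted p = 0.00132). Co-treated libraries at 4 days, at 0.209, 0.194, and 0.176, exceeded GSK591 alone by 0.120 (adjusted p = 2.04e-05), although exon 15 was high in both groups. Co-treatment was called against GSK591 in 1 of 64 member events at 2 days and 4 of 59 at 4 days, against 3.39% and 5.08% of all events. Of these calls, MS023 at 7 days and co-treatment against GSK591 held without any 1 library, but no exon 15b call was made with limma. The exon 15b calls at 4 days were lost without libraries a or b of DMSO (-0.061 and -0.054) or of GSK591 (-0.060 and -0.054), and for MS023 without library c of DMSO (0.079) or a or b of MS023 (0.072 and 0.084). For exon 15, the GSK591 call at 4 days was lost without libraries a or c of DMSO (0.123 and 0.082) or any GSK591 library (0.115 to 0.124), the co-treatment call without library c of DMSO (0.099), the 7-day call without library c of DMSO (0.130) or of GSK591 (0.155), and the 2-day MS023 call without libraries a or b of DMSO (-0.149 and -0.118) or b or c of MS023 (-0.114 and -0.153). With the larger dispersion, the exon 15 calls against DMSO were lost for GSK591 at 7 days and MS023 at 2 days. The exon 15b calls against DMSO at 4 days were lost for both inhibitors. Set against the junction from exon 14 straight to exon 16, exon 15 was not tested with GSK591 at 4 days, and among the 9 other groups the lowest library was at 0.970. Of the 7 comparisons with DMSO that tested it, co-treatment at 2 days was the one called (0.970, 0.972, and 0.987 against 1 in each DMSO library, ΔΨ -0.024, adjusted p = 0.0253). That call was lost without any of the DMSO libraries (-0.024 in each case) or libraries a or b of co-treatment (-0.020 and -0.022).

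**Figure D5:**
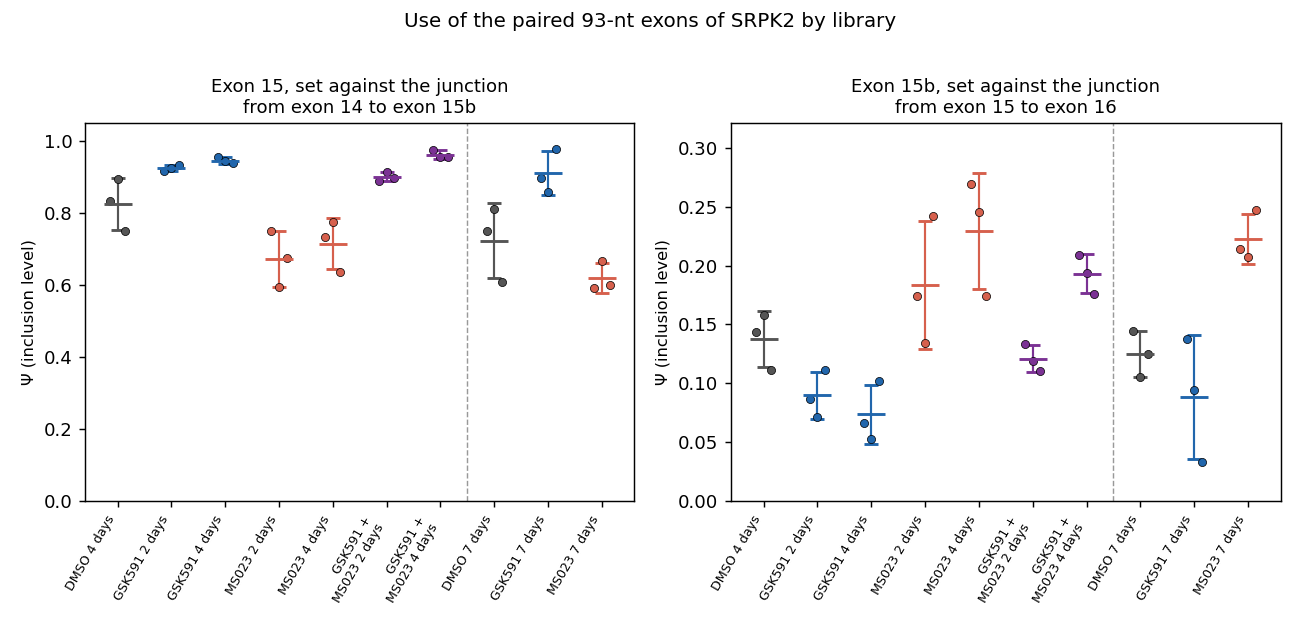
Ψ of SRPK2 exon 15 against the junction from exon 14 to exon 15b (left) and of exon 15b against the junction from exon 15 to exon 16 (right) in each library (points), with the mean and SD of the 3 libraries per group (bars). Exon 15 is higher with GSK591 than with MS023 at each time, and exon 15b is lower.

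In DYRK1A, exon 2 (chr21:38792601-38792686, 86 nt), which spans an end of the coding sequence, was included less with GSK591 at 4 days. Of the 8 comparisons with DMSO, all of which tested it, only this called it. Ψ was 0.760, 0.915, and 0.710 in DMSO and 0.689, 0.617, and 0.581 with GSK591, which lay below (ΔΨ -0.166, adjusted p = 0.022). MS023 was at 0.822, 0.813, and 0.957, above every GSK591 library, and GSK591 minus MS023 was -0.235 (adjusted p = 0.000563), which held without any 1 library but not with limma. The call against DMSO was lost with the larger dispersion, and without library b of DMSO (-0.106, adjusted p = 0.486) or b or c of GSK591 (-0.160 and -0.142). A 27-nt extension at the 3′ splice site of exon 4 (chr21:38850483-38850509), which keeps the frame, was at 0.168, 0.161, and 0.228 in DMSO and 0.106, 0.0624, and 0.132 with co-treatment at 4 days, where all libraries lay below DMSO (ΔΨ -0.085, adjusted p = 0.0429). This event too was called in no other comparison with DMSO. Its call was lost with the larger dispersion, and without libraries a or c of DMSO (-0.094 and -0.064) or a or b of co-treatment (-0.088 and -0.067).

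SRPK1 had a pair of small calls. Its exon 15 went from 1, 0.991, and 1 in DMSO to 0.974, 0.970, and 0.973 with co-treatment at 4 days (ΔΨ -0.025, adjusted p = 0.0383), and a 96-nt exon between exons 2 and 3 (chr6:35872656-35872751) from 0.0108, 0.0224, and 0.0273 to 0.00547, 0, and 0 with GSK591 at 4 days (ΔΨ -0.018, adjusted p = 0.0169). Neither pair of groups overlapped, but the differences amount to a few reads. The exon 15 call was lost without libraries a or c of DMSO (-0.023 each) or any co-treated library (-0.025 to -0.024), and the other without libraries b or c of DMSO (-0.017 and -0.015) or b or c of GSK591 (-0.017 each).

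Another 5 events were called against DMSO and are given by value only. CLK2 used exon 7 less in place of exon 8 with GSK591 at 4 days (ΔΨ -0.138, adjusted p = 0.00289) and with co-treatment (-0.105, adjusted p = 0.0468), and exon 8 was included more with GSK591 at 4 days (0.133, adjusted p = 0.024). In CLK4, a 777-nt segment at a 3′ splice site inside the long exon between exons 2 and 3 rose with co-treatment at 4 days (0.374, adjusted p = 0.00709), and a 59-nt exon there rose with MS023 at 7 days (0.0979, adjusted p = 0.0123). SRPK2 exon 15b, set beside exon 14, fell with co-treatment at 2 days (-0.182, adjusted p = 0.00812).

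Of the other genes that act on SR proteins, the lists give counts only. The 12 SR protein genes with tested events, the substrates of these kinases, had 9 of 104 events called with GSK591 at 2 days (3 higher, 6 lower), 17 of 119 at 4 days (12 higher, 5 lower), and 19 of 97 at 7 days (13 higher, 6 lower). With MS023 there were 9 of 118 (5 higher, 4 lower), 11 of 126 (2 higher, 9 lower), and 12 of 113 (3 higher, 9 lower), and with co-treatment 18 of 113 (7 higher, 11 lower) and 27 of 101 (15 higher, 12 lower). These are 8.65%, 14.3%, and 19.6% with GSK591, 7.63%, 8.73%, and 10.6% with MS023, and 15.9% and 26.7% with co-treatment, where over all events 6.28%, 10%, and 7.31%, then 2.24%, 2.96%, and 3.79%, then 11.8% and 13.1% were called. Over all events, the shares called higher were 2.35%, 4.35%, and 3.49% with GSK591, 0.687%, 1.03%, and 1.5% with MS023, and 3.94% and 5.32% with co-treatment. The shares called lower were 3.93%, 5.65%, and 3.81%, then 1.55%, 1.93%, and 2.29%, then 7.86% and 7.78%. The 19 genes of other SR protein kinases, phosphatases, and importins had 6.73%, 8.33%, and 6.7% called with GSK591 (15 of 223, 19 of 228, and 14 of 209), 2.56%, 5.07%, and 5.39% with MS023 (6 of 234, 11 of 217, and 11 of 204), and 14.3% and 10.3% with co-treatment (37 of 259 and 25 of 242). Median ΔΨ in the 8 comparisons lay between -0.000979 and 0.00096 for the SR proteins and between -0.00119 and -0.000435 for the other list.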

How the data were processed

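The authors trimmed reads with Trim Galore 0.6.5, aligned them to hg19 with STAR 2.4.2a, and ran rMATS (the sources give its release differently). Per the file headers, the deposited tables hold whole-number counts of inclusion and skipping reads, not normalized, joined for 3 libraries per cell without replicate numbers, so libraries are named a, b, and c by position. Inclusion counts take in reads within the segment, which overlapping events share. The authors' Ψ, its difference, p-values, and FDR were not used. DMSO counts did not differ between tables (0 of 693643 compared). The 7-day control was inferred from labels. Every event was fitted with a quasi-binomial logistic model, with dispersions at least 1 after moderation by squeezeVar (R 4.3.3, limma 3.58.1), an F test, and Benjamini-Hochberg adjustment within event type and comparison. Comparisons with the same DMSO libraries are not independent. Libraries of a group differed by more than sampling noise, so none was treated as a copy. At most 3 events per gene called most often, and exon 4 of the CLK genes with its introns, were described. Members and lists were chosen with earlier results of these data known. Exons follow the MANE transcripts of GENCODE on GRCh37. The model was tested on simulated data in which all events had a common spread between libraries. That test cannot show how the model treats events with a wider spread of their own. Kinetic and actinomycin D samples were not analysed here. Alternatives were other tests, read minimums, adjustment, dispersion, effective lengths, and leaving out libraries.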

Additional observations from a re-analysis of the deposited data

Results flagged for a closer look

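CLK3 intron 3 was singled out because the test of the interaction found that its GSK591 effect differed between 7 and 4 days, by -0.046 in ΔΨ (adjusted p = 0.0362), in 1 of 52 member events tested, against 1.97% of all events. Of all RI, 6.77% were called in this test, and 6.34% with the lower ΔΨ at 7 days. At 4 days GSK591 libraries (0.110, 0.0973, and 0.106) overlapped DMSO (0.101, 0.0825, and 0.0894), and at 7 days they lay below it (0.0635, 0.0614, and 0.0889 against 0.0968, 0.111, and 0.104). The call was lost in 8 of 12 fits that left out 1 library (libraries b or c of DMSO and a or c of GSK591 at 4 days, b or c of DMSO and a or b of GSK591 at 7 days), with ΔΨ between -0.046 and -0.041 in these, and it was not made with limma or with adjustment over all event types together.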

How the results depend on the processing

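No paired analysis was possible because the columns carry no replicate numbers. Minimums of 20 or 1 reads kept all 70 described calls. With limma on the log2 odds (0.5 added) 12 of them remained, and with 0.1 added 9. Member events called with either addition were 0 with GSK591 or MS023 at 2 days, MS023 at 4 and 7 days, GSK591 against MS023 at 2 days, co-treatment against GSK591 at both times, DMSO at 7 against 4 days, and the GSK591 effect at 7 against 4 days. Over all events, 0.5 added called 633 of 112114 with GSK591 at 2 days. It called 33 of 114060, 24 of 114084, and 26 of 104266 with MS023 at 2, 4, and 7 days. For GSK591 against MS023 at 2 days it called 1882 of 91716. For co-treatment against GSK591 it called 16 of 93152 and 38 of 95926. It called 1852 of 107783 for the DMSO groups and 14 of 78215 for the GSK591 effect. Member events called with either addition were 1 with GSK591 at 4 and at 7 days, 2 for GSK591 against MS023 at 4 days, and 4 with co-treatment at 2 days. Over all events, 0.5 added called 2906 of 116292 and 1005 of 101875 with GSK591 at 4 and 7 days. It called 6112 of 93079 for GSK591 against MS023 at 4 days and 4910 of 118220 with co-treatment at 2 days. With 0.5 and 0.1 added, member events called were 6 and 2 with co-treatment at 4 days, and 4 and 5 for GSK591 against MS023 at 7 days. Over all events, 0.5 added called 6779 of 117436 and 4925 of 84867 in these comparisons. Adjustment over all event types kept 63 calls and left 3 events for the DMSO groups and 0 for the GSK591 effect. Over all events it called 5802 of 107783 and 1480 of 78215 in these comparisons. The larger dispersion, added after the data were seen, kept 55 calls and left 6 events with GSK591 at 4 days, 2 at 7 days, 1 with MS023 at 4 days, and 2 for co-treatment against GSK591 at 4 days. Over all events it called 8914 of 116292, 5520 of 101875, 2228 of 114084, and 3492 of 95926 in these comparisons. The cause of these losses was not tested.

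Leaving out 1 library gave 2 to 3 member events with GSK591 at 2 days, 3 to 7 at 4 days, and 2 to 4 at 7 days. It gave 2 to 3, 0 to 3, and 6 to 9 with MS023, and 5 to 6 and 5 to 9 with co-treatment. Over all events these fits called 5276 to 6369, 9153 to 9607, and 5757 to 6454 with GSK591. With all libraries the counts were 7036, 11631, and 7443. With MS023 these fits called 1920 to 2208, 2278 to 2749, and 2916 to 3776, against 2557, 3375, and 3954. With co-treatment they called 10881 to 11654 and 12549 to 13178, against 13944 and 15393. In member events, GSK591 against MS023 had 3 to 9, 5 to 10, and 10 to 11, co-treatment against GSK591 1 and 2 to 7, DMSO at 7 against 4 days 1 to 4, and the GSK591 effect 0 to 1. Over all events, GSK591 against MS023 had 6778 to 8344, 10972 to 11442, and 8155 to 8566. Co-treatment against GSK591 had 2232 to 2738 and 3542 to 3933, the DMSO groups 4288 to 5910, and the GSK591 effect 1032 to 1545. ΔΨ changed sign, uncalled throughout, for CLK1 exon 4 with GSK591 at 2 days (-0.0218 to 0.00892), CLK3 exon 4 with GSK591 at 4 days (-0.0195 to 0.00602) and 7 days (-0.0173 to 0.00965) and MS023 at 2 days (-0.0123 to 0.00146), and CLK4 exon 4 with GSK591 at 7 days (-0.0391 to 0.00741) and co-treatment at 4 days (-0.0423 to 0.00668). Without effective lengths, 69 of 69 called differences kept their sign and 35 moved by over 1.5 times. Depth limits the smaller events: SRPK2 exon 15 had 66 to 76 reads per library with GSK591 at 7 days, where only large differences can be called.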
